A study of Mus musculus with 24 samples.

Results

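The interleukin-6 (IL-6) family was followed here at the RNA level in the spinal cord of mice with experimental autoimmune encephalomyelitis (EAE), a T cell-driven model of inflammatory demyelination. The listed members were 10 genes, namely the cytokine genes Il6, Lif, Osm, Cntf, Clcf1 and Il11 and the receptor genes Il6ra, Il6st, Lifr and Cntfr, taken by their symbol in the array's annotation. Of these 10 genes, 8 were measured by at least 1 probe set (a group of oligonucleotides read as 1 value) that the annotation assigned to a single gene, among 17097 genes measured that way. No listed probe set named Osm, and all 3 probe sets of Cntf were shared with other genes, so neither received a value. Where a gene had several probe sets, the one with the highest mean over all 24 arrays represented it, and its other probe sets are given where they differed.

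The series held 24 arrays, each of total spinal cord RNA from 1 mouse, in 5 groups: Th17 recipients labelled Act1 KO (n = 4), naive mice labelled Act1 KO (n = 5), wild-type Th17 recipients (n = 5), wild-type Th1 recipients (n = 5) and naive wild-type mice (n = 5). Act1, encoded by Traf3ip2, is the adaptor through which the IL-17 receptor signals, and the genotype is that of the mouse that received the cells, not of the transferred cells. Recipients were irradiated at 500 rad and then given MOG-reactive T cells that had been cultured for 5 days with IL-23 (Th17) or with IL-12 and an antibody against IL-23p19 (Th1). Naive mice were left unchallenged, so irradiation and transfer cannot be told apart in any comparison of recipients with naive mice, and no Th1 transfer was made into mice labelled Act1 KO. The labels place collection at the onset of disease, the study's methods at a fixed day after transfer and its figure legend at the peak of disease. The methods describe female littermates aged 8 to 12 weeks.

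IL-6 family cytokines signal through receptor complexes that contain the glycoprotein gp130, encoded by Il6st. IL-6 first binds the IL-6 receptor alpha chain, encoded by Il6ra, on the cell surface or as a soluble form released by proteases, whereas LIF, CNTF and CLCF1 signal through gp130 paired with the LIF receptor. The complexes activate Janus kinases and the transcription factor STAT3, whose target Socs3 encodes a feedback inhibitor that acts on gp130. In the central nervous system IL-6 is made by astrocytes, microglia and infiltrating cells, and IL-6 also acts with TGF-beta on naive T cells in the formation of Th17 cells.

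All values below are log2 intensities after robust multi-array averaging (RMA), on which a difference of 1 is a doubling. The arrays carry no detection calls. The median over all probe sets was between 3.46 and 3.57 on the arrays, and a value near or below that level is dim, so a fold change measured from a dim group may understate the change. By this reading Lif, Clcf1 and Il11 were dim in every group, Il6 was dim in every group but wild-type Th17 recipients, and Il6ra, Il6st, Lifr and Cntfr were above the line in every group. Arrays of a group correlated at 0.986 to 0.997, and the first principal component, which held 82.8% of the variance, placed wild-type recipients at 55.0 to 74.6 and every other array at -49.1 to -46.4. Wild-type Th1 recipients 4 and 5 stood lowest among the wild-type recipients on it, at 55.0 and 55.9. The probe set of Traf3ip2 read 5.67, 5.59, 5.83 and 5.67 in Th17 recipients labelled Act1 KO and 5.56 ± 0.24 (SD, n = 5) in naive mice labelled Act1 KO, against 5.38 ± 0.18 (SD, n = 5) in wild-type Th17 recipients and 4.29 ± 0.20 (SD, n = 5) in naive wild-type mice. The targeted gene was thus higher, not lower, under the Act1 KO label. The position of this probe set relative to the modified part of the gene was not examined, so it does not check the label, and every genotype direction below rests on the label alone.

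Sequence upstream of the start of the genes on which the results turn is shown here for orientation: 2 cytokine genes (Il6 and Lif), the IL-6 binding receptor chain Il6ra and the feedback inhibitor Socs3. Il6, Il6ra and Socs3 were called higher in wild-type Th17 recipients than in naive wild-type mice, as was 1 of 3 probe sets of Lif, though not the one that represents it. Each line holds the 250 bases before the annotated start in the sense direction of the gene, from RefSeq on build GRCm38.p6, and capitals mark matches to the motifs searched. The windows are chr5:30012864-30013113 on the plus strand (Il6), chr11:4257318-4257567 on the plus strand (Lif), chr3:89913197-89913446 on the minus strand (Il6ra) and chr11:117969367-117969616 on the minus strand (Socs3).
Il6: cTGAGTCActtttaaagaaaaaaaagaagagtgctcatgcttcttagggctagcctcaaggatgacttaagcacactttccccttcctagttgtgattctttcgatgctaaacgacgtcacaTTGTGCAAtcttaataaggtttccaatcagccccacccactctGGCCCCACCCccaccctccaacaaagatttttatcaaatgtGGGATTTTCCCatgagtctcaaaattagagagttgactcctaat
Lif: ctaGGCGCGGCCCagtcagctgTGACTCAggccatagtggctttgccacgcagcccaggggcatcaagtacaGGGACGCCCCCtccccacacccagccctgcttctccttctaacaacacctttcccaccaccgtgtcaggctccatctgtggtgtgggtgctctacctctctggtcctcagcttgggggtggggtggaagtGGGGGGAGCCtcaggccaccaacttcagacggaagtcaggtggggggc
Il6ra: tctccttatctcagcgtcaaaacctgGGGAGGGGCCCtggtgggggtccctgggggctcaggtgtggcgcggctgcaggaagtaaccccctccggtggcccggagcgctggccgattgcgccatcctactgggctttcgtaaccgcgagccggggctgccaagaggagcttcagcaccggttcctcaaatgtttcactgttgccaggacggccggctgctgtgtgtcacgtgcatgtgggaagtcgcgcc
Socs3: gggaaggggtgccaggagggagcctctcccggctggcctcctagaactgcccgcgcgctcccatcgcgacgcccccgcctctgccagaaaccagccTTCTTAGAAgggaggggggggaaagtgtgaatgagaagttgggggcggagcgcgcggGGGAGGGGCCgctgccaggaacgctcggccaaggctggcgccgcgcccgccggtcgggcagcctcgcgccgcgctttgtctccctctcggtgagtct

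The motifs were searched on both strands and spelled TTCNNNGAA (STAT), GGGNNNNNCC (NF-kB), TGANTCA (AP-1), TGACGTCA (CRE) and TTGCNNAA (C/EBP), where N is any base. Of 32851 mouse promoter windows of this length, 7.02% held the STAT letters, 45.8% the NF-kB letters, 6.75% the AP-1 letters, 1.55% the CRE letters and 9.56% the C/EBP letters. The Il6 window held the NF-kB letters 3 times, at bases 85 to 76, 44 to 35 and 43 to 34 before the start, with the last pair overlapping on opposite strands. The same window held the AP-1 letters at bases 249 to 243 and the C/EBP letters at bases 128 to 121. The Lif window held 4 NF-kB matches and 1 AP-1 match, and the Il6ra window 2 overlapping NF-kB matches. Among these 4 windows the STAT letters were found in that of Socs3, at bases 154 to 146. Windows existed for 8 of the 10 members, with none for Osm or Clcf1, and the window of Il6st held none of the 5 motifs. A match of letters describes the sequence and does not show that a factor binds there.

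Il6 encodes the founding cytokine of the family, and its RNA was highest in wild-type Th17 recipients. Its values were 3.27, 4.54, 4.09, 3.11 and 4.29 in wild-type Th17 recipients, 3.37, 2.45, 2.84, 2.83 and 2.92 in wild-type Th1 recipients, and 2.65, 2.52, 2.45, 2.60 and 2.54 in naive wild-type mice. All 5 Th17 recipients lay above all 5 naive mice, whereas Th1 recipient 1 lay above Th17 recipients 1 and 4. Il6 averaged 3.86 ± 0.64 in Th17 recipients, 2.88 ± 0.33 in Th1 recipients and 2.55 ± 0.07 in naive mice (SD, n = 5 each). The difference between Th17 recipients and naive mice was 1.31 (SE 0.19, 95% confidence interval 0.91 to 1.71, 2.48-fold), with a limma adjusted p of 2.88e-06 and an exact two-sided permutation p of 0.00794, the smallest that 252 permutations of 5 against 5 allow. Between Th1 recipients and naive mice the difference of 0.33 (interval -0.07 to 0.73) did not pass (limma adjusted p = 0.195, exact permutation p = 0.0476).

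The direct comparison of the transfers put Il6 in Th17 recipients 0.98 above that in Th1 recipients (SE 0.19, 95% interval 0.58 to 1.38, 1.97-fold, limma adjusted p = 0.00299, exact permutation p = 0.0238). The SE, interval and limma p of each Il6 comparison rest on 1 spread estimated over all 5 groups. The SD of Il6 was 0.64 in Th17 and 0.33 in Th1 recipients. It was 0.07 in naive wild-type mice, 0.12 in naive mice and 0.14 in Th17 recipients labelled Act1 KO, where Il6 was dim. The interval may therefore be too narrow for this comparison. When no arrays but those of Th17 and Th1 recipients entered the model, the limma adjusted p was 0.0830. Without Th1 recipients 4 and 5 the difference of 0.98 had a limma adjusted p of 0.0230. The sample titles carry a code whose meaning no source states, and a letter in it was read here as a plate row. Within arrays that share this letter, Il6 in Th17 recipients exceeded that in Th1 recipients by 0.43 to 1.17 for all 3 letters that both groups held. Summed anti-logged levels of 7 measured neutrophil markers moved in the same direction as Il6, at 609 to 1330 in Th17 recipients, 93.2 to 309 in Th1 recipients and 50.5 to 81.4 in naive wild-type mice. So did those of 5 fibroblast markers, at 685 to 957, 272 to 600 and 96.4 to 108 in the same groups. Of these markers, 5 of 7 for neutrophils and 3 of 5 for fibroblasts were called higher in the Th17 group when the transfers were compared, beside 1.91% of all genes. So were 4 of 7 measured monocyte and macrophage markers and 2 of 6 T cell markers, and none of these 4 lists had a marker called lower. Of the other marker lists, 1 of 6 astrocyte markers was called higher, and 0 of 5 measured microglia markers were called. The B cell and endothelium lists had no marker called higher and 1 each called lower, Cd22 (-0.80) and Flt1 (-0.56). No marker of oligodendrocytes, neurons, Schwann cells or skeletal muscle was called. Of the 7 neutrophil markers, 4 averaged above the array median line in Th17 recipients, 3 in Th1 recipients and 1 in naive mice. The part of these cell types in the Il6 difference was not tested. In whole cord, fewer cells of a type and less RNA per cell cannot be told apart.

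**Figure D1:**
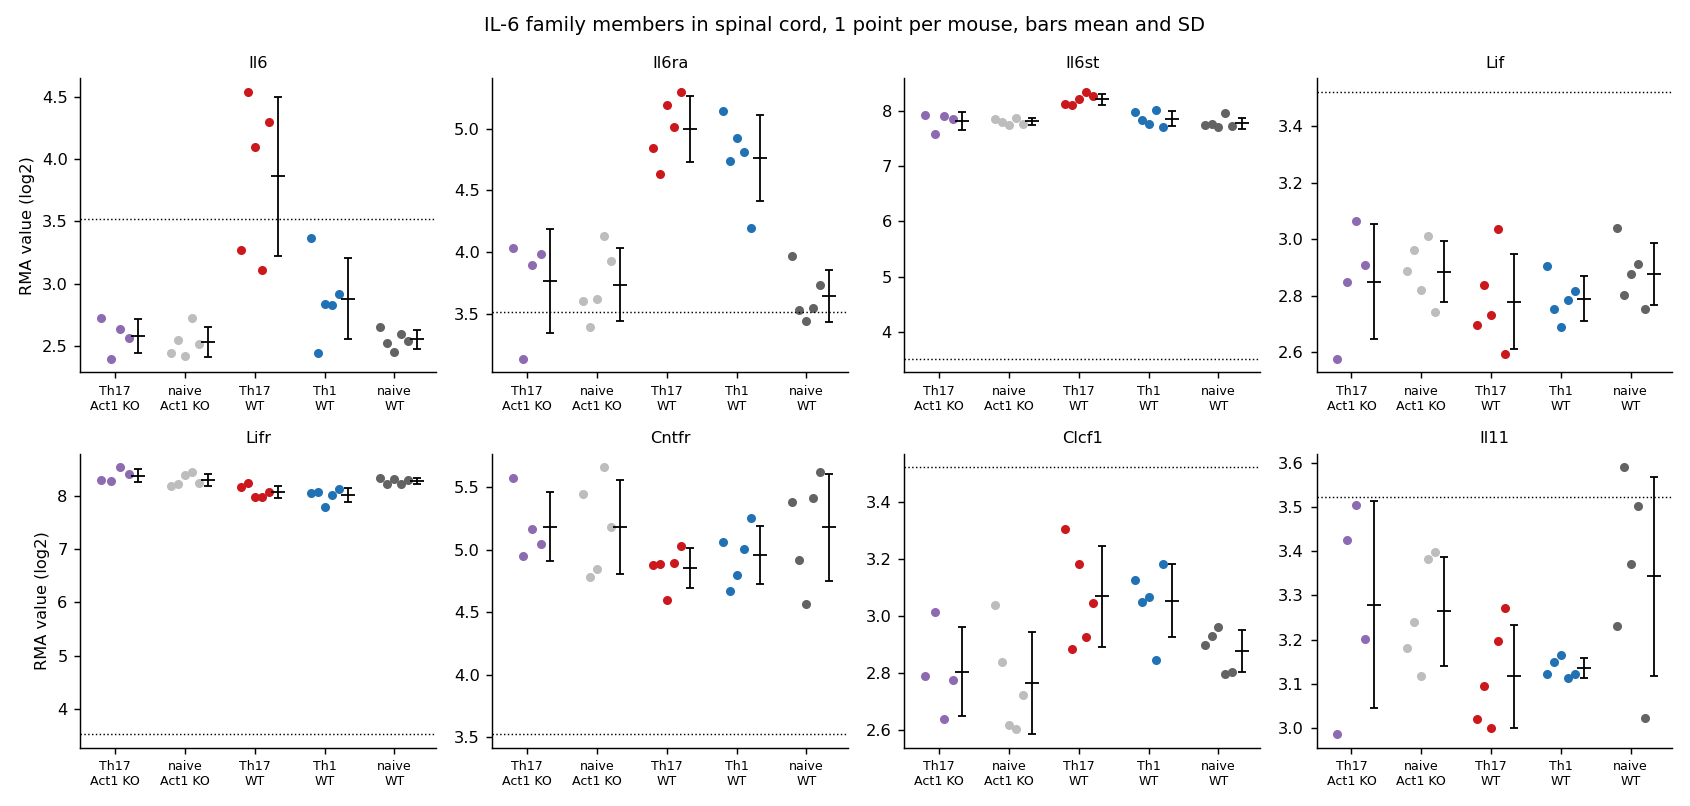
RMA log2 intensity (y axis) of the 8 measured IL-6 family genes, 1 panel each, with 1 point per array and the group mean ± SD, the groups running from Th17 recipients labelled Act1 KO to naive wild-type mice (x axis). The dotted line is the median of the array medians, 3.52, and Il6 lies above it on average in wild-type Th17 recipients alone (3.86).

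Among all genes, 18.0% were called higher and 25.5% lower in wild-type Th17 recipients than in naive wild-type mice, a call being a limma p adjusted over 17097 genes that lay under 0.05. Of the 8 measured members, 3 were higher (Il6, Il6ra and Il6st), 1 was lower (Lifr) and 4 were not called. For Th1 recipients against naive mice, with 16.7% of all genes higher and 24.1% lower, 1 member was higher (Il6ra) and 1 lower (Lifr). Between Th17 and Th1 recipients, where 1.91% of genes were higher and 1.09% lower, 2 members were higher in Th17 recipients (Il6 and Il6st) and none was lower. At an unadjusted p under 0.05 the same 2 members passed there, as they did by the methods' t-test and by an exact Mann-Whitney test, while neither of these tests called a member after adjustment. Between the transfers, 2051 of all 17097 genes passed this unadjusted threshold by limma. By the other tests, in the order named, 1843 and 1406 genes passed it. The median difference over the 8 members was 0.05 for Th17 recipients against naive mice, beside -0.05 over all genes.

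Lif encodes leukaemia inhibitory factor, and its probe sets disagreed. The probe set that represented it was dim and not called, averaging 2.78 ± 0.17 in wild-type Th17 recipients, 2.79 ± 0.08 in wild-type Th1 recipients and 2.88 ± 0.11 in naive wild-type mice (SD, n = 5 each), with a Th17-to-naive difference of -0.10 (limma adjusted p = 0.430). A second probe set of Lif read 2.95, 3.14, 3.45, 3.19 and 3.46 in Th17 recipients, 2.37, 2.97, 2.71, 2.88 and 2.59 in Th1 recipients and 2.63, 2.49, 2.58, 2.69 and 2.69 in naive mice. On this probe set every Th17 recipient lay above every naive mouse, and Th17 recipient 1 lay below Th1 recipient 2. The difference was 0.62 (SE 0.11) between Th17 recipients and naive mice, with a limma p of 3.20e-05 adjusted over the 45118 probe sets, of which 12.9% were called higher. Between Th17 and Th1 recipients it was 0.53 (adjusted p = 0.00522), where 1.01% of probe sets were called higher, with an exact permutation p of 0.0159. The remaining Lif probe set was not called in any comparison, and all 3 were below the array median line, so a change of Lif rests on 1 dim probe set of 3.

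**Figure D2:**
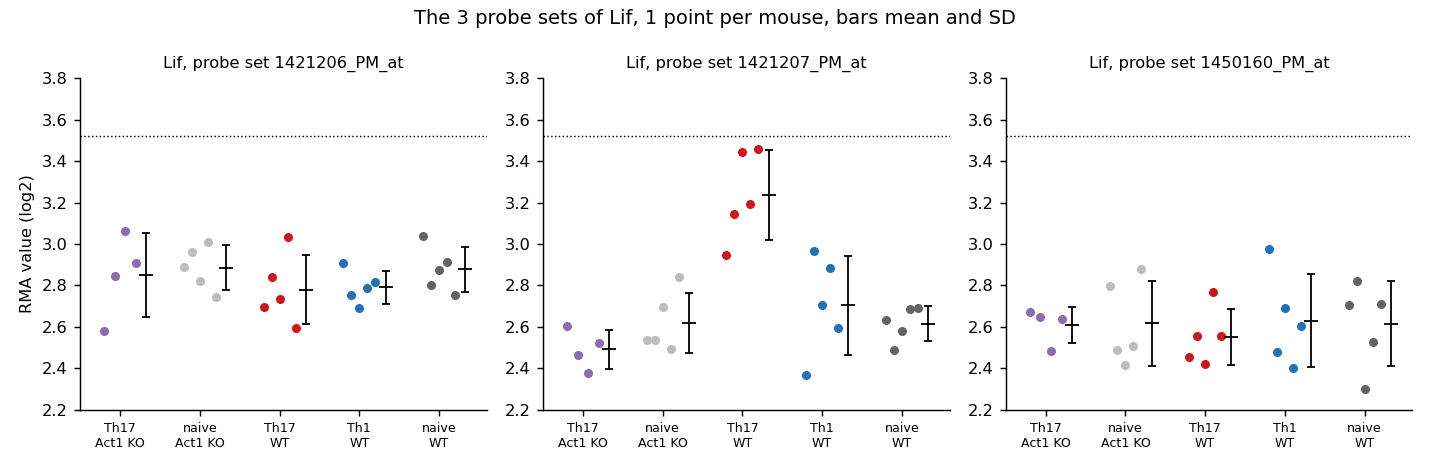
RMA log2 intensity (y axis) of the 3 single-gene probe sets of Lif, 1 panel each, with 1 point per array and the group mean ± SD for the 5 groups (x axis), and the median of the array medians, 3.52, as a dotted line. In the panel of the second probe set the wild-type Th17 recipients read 2.95 to 3.46 and stand above all arrays of the naive mice, and the other panels show no such separation.

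Clcf1, which encodes a cytokine that acts through the CNTF receptor, and Il11, which encodes interleukin-11, were dim and were not called between wild-type groups. Clcf1 averaged 3.07 ± 0.18 in Th17 recipients, 3.05 ± 0.13 in Th1 recipients and 2.88 ± 0.07 in naive mice (SD, n = 5 each), and its difference of 0.19 between Th17 recipients and naive mice had a limma adjusted p of 0.112. Il11 averaged 3.12 ± 0.12 in Th17 recipients, 3.13 ± 0.02 in Th1 recipients and 3.34 ± 0.23 in naive mice. Its difference of -0.23 between Th17 recipients and naive mice had an unadjusted p of 0.0340 and a limma adjusted p of 0.0739. Naive mouse 5, at 3.02, was the lowest of its group, and without it the adjusted p of Il11 was 0.0129 for Th17 recipients and 0.0207 for Th1 recipients against naive mice. Without Th17 recipient 5 it was 0.0476 for the Th17 comparison.

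Il6ra, the ligand-binding chain, was higher in both kinds of wild-type recipient than in naive mice. Its values were 4.84, 4.63, 5.19, 5.01 and 5.30 in Th17 recipients, 5.14, 4.74, 4.92, 4.81 and 4.20 in Th1 recipients, and 3.97, 3.54, 3.44, 3.55 and 3.73 in naive mice. Both recipient groups lay wholly above the naive mice and overlapped each other. The difference from naive mice was 1.35 (SE 0.18, 2.55-fold, limma adjusted p = 4.95e-07) in Th17 recipients and 1.11 (SE 0.18, 2.17-fold, limma adjusted p = 1.02e-05) in Th1 recipients, each with an exact permutation p of 0.00794. Between Th17 and Th1 recipients it was 0.23, with a 95% interval of -0.13 to 0.60 (limma adjusted p = 0.749), so an Il6ra difference between the transfers of up to that size was not resolved. A second probe set of Il6ra was dim, between 2.44 and 3.28 on all arrays, and was not called, with a Th17-to-naive difference of 0.07. Monocyte and macrophage markers moved with Il6ra, the summed level of 7 of them being 2778 to 3593 in Th17 recipients, 2378 to 3161 in Th1 recipients and 77.2 to 81.3 in naive mice, and 6 T cell markers summed to 442 to 555, 379 to 428 and 43.9 to 46.8 in the same groups. Summed levels of 5 measured microglia markers were 678 to 777, 737 to 832 and 293 to 328 in these groups. The microglia markers were mixed: against naive mice 2 were called higher and 3 lower in Th17 recipients, beside 18.0% and 25.5% of all genes. In Th1 recipients 2 were called in each direction, beside 16.7% higher and 24.1% lower. The part of these cells in the Il6ra difference was not tested.

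Il6st, the signalling chain that the family shares, was higher in Th17 recipients than in either other wild-type group, by a small amount. It read 8.11, 8.09, 8.21, 8.34 and 8.26 in Th17 recipients, 7.97, 7.84, 7.75, 8.01 and 7.70 in Th1 recipients, and 7.75, 7.75, 7.70, 7.95 and 7.72 in naive mice. The Th17 recipients did not overlap either group, whereas Th1 recipients and naive mice overlapped. In Th17 recipients Il6st was 0.43 above naive mice (SE 0.08, 1.34-fold, limma adjusted p = 7.69e-05) and 0.35 above Th1 recipients (SE 0.08, 1.27-fold, limma adjusted p = 0.0122), each with an exact permutation p of 0.00794. Th1 recipients and naive mice differed by 0.08 (95% interval -0.09 to 0.24, limma adjusted p = 0.496). The Il6st result depended on its probe set and on scaling: neither of its other 2 probe sets was called, the mean of the 3 gave 0.22 between Th17 and Th1 recipients (adjusted p = 0.236), and centring arrays on ribosomal protein genes left 0.07 between Th17 recipients and naive mice (adjusted p = 0.534) and turned the Th1 difference to -0.33. That centring moved the median of all genes to -0.41 for Th17 recipients against naive mice, beside -0.05 without it.

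Lifr, which pairs with gp130 to receive LIF, was the member called lower in wild-type recipients. It read 8.15, 8.23, 7.97, 7.97 and 8.06 in Th17 recipients, 8.06, 8.07, 7.79, 8.02 and 8.12 in Th1 recipients, and 8.33, 8.21, 8.31, 8.21 and 8.30 in naive mice. The Th1 recipients lay below all naive mice, and Th17 recipient 2 overlapped them. The difference from naive mice was -0.20 in Th17 recipients (SE 0.08, limma adjusted p = 0.0446, exact permutation p = 0.0238) and -0.26 in Th1 recipients (SE 0.08, limma adjusted p = 0.00775, exact permutation p = 0.00794), and the gap of 0.07 between the transfers was not called. The Th17 call was lost without Th17 recipient 3, 4 or 5, Th1 recipient 4, naive wild-type mouse 1, 3 or 5, or Th17 recipient 4 labelled Act1 KO (adjusted p 0.0501 to 0.114). It was also lost with the title letter as a block (adjusted p = 0.0773), after quantile normalisation (0.113), with a trended and robust variance prior (0.0586) and for the mean of all Lifr probe sets (0.523). The Th1 call was lost for that mean (0.294), and the other 2 Lifr probe sets were called in neither comparison, one of them reading 0.03 and 0.06. Markers of neurons summed to 8435 to 9770 in Th17 recipients, 8659 to 10070 in Th1 recipients and 14681 to 15792 in naive mice, and those of oligodendrocytes to 9412 to 11293, 9243 to 11044 and 14343 to 15310 in the same groups. All 6 neuron and all 5 measured oligodendrocyte markers were called lower in both transfers, beside 25.5% (Th17) and 24.1% (Th1) of all genes. The 6 astrocyte markers were mixed, summing to 3825 to 4185, 3455 to 4052 and 4959 to 5372, with 3 called higher and 2 lower in Th17 recipients, and 2 called in each direction in Th1 recipients, against naive mice. The part of these cells in the lower Lifr was not tested.

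Cntfr, the CNTF-binding chain, was not called between wild-type groups and spread widely among naive mice. Its values were 4.88, 4.88, 4.59, 4.89 and 5.03 in Th17 recipients, 5.06, 4.67, 4.80, 5.01 and 5.25 in Th1 recipients, and 5.38, 4.92, 4.56, 5.41 and 5.62 in naive mice. The Th17-to-naive difference of -0.32 had a limma adjusted p of 0.156. Without naive mouse 3, the lowest, it was -0.48 with an adjusted p of 0.0242.

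**Figure D3:**
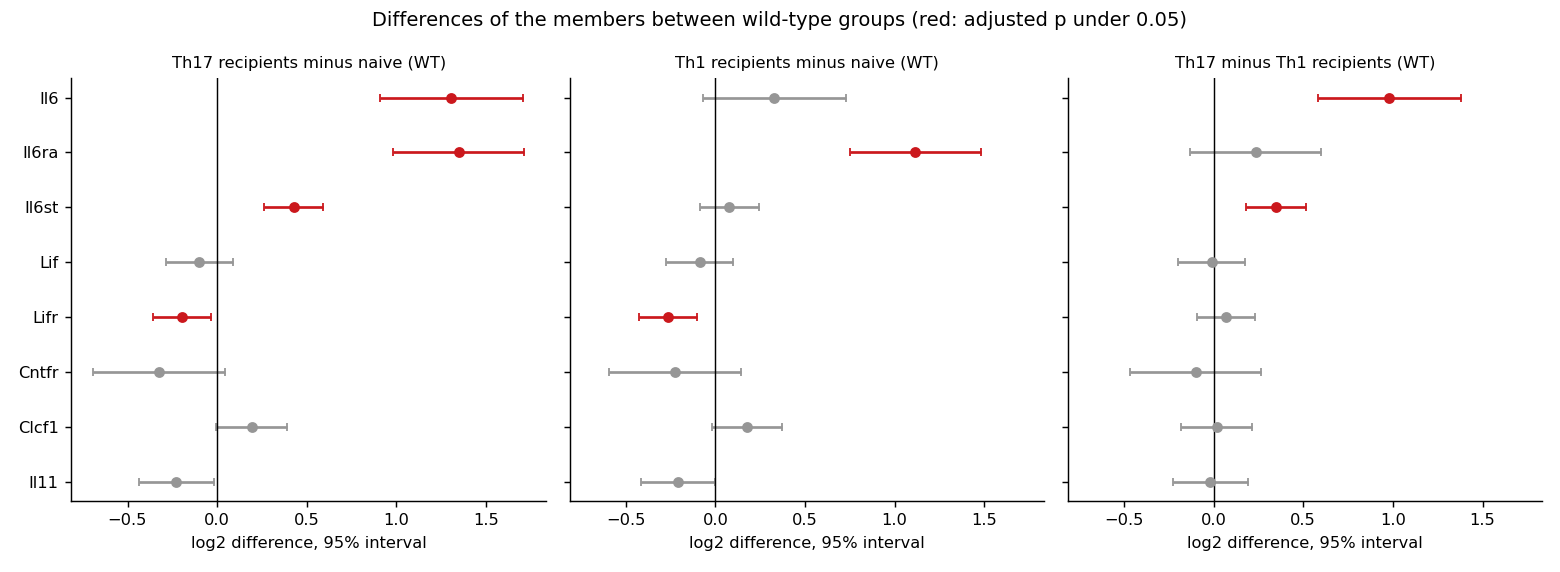
Log2 difference with its 95% confidence interval (x axis) of the 8 measured members (y axis) for wild-type Th17 recipients against naive mice, Th1 recipients against naive mice and Th17 against Th1 recipients. Called differences are red and the others grey. Il6 and Il6ra have the largest differences from naive mice in Th17 recipients, 1.31 and 1.35, and Il6 and Il6st are the 2 members called between the transfers.

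Other family members and shared receptor chains, a list of 10 genes of which 6 were measured, had 3 members called higher in both kinds of wild-type recipient against naive mice and none lower. Of all genes, 18.0% (Th17) and 16.7% (Th1) were called higher in these comparisons. Osmr, the chain that pairs with gp130 to receive oncostatin M, averaged 7.06 ± 0.40 in Th17 recipients, 6.43 ± 0.36 in Th1 recipients and 3.46 ± 0.08 in naive mice (SD, n = 5 each). The Osmr difference was 3.59 for Th17 recipients against naive mice (limma adjusted p = 5.23e-17) and 0.62 for Th17 against Th1 recipients (limma adjusted p = 0.0183). Ebi3, a subunit of IL-27, went the other way between the transfers, being 2.02 above naive mice in Th17 recipients and 2.69 above them in Th1 recipients, a gap of -0.67 (limma adjusted p = 0.0415). Il27ra, a chain of the IL-27 receptor, was 1.06 above naive mice in Th17 recipients and 0.87 above them in Th1 recipients. Ctf1, Il31 and Il31ra stayed within 0.11 of naive mice in both transfers and were not called. The list's median difference was 0.57 for Th17 recipients against naive mice, beside -0.05 over all genes.

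Both proteases listed for their release of the IL-6 receptor from the cell surface were higher in wild-type recipients. Against naive mice, 18.0% (Th17) and 16.7% (Th1) of all genes were called higher. Adam17 was 2.23 above naive mice in Th17 recipients (SE 0.11, limma adjusted p = 2.39e-15) and 2.11 above them in Th1 recipients, and Adam10 was 0.92 and 0.89 above them (limma adjusted p = 5.11e-04 and 7.38e-04). Neither was called between Th17 and Th1 recipients.

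Of 9 measured signal transducers, 4 were higher and 2 lower in Th17 recipients than in naive mice. Of all genes, 18.0% were called higher and 25.5% lower there, and 16.7% and 24.1% for Th1 recipients. The 2 of 9 called lower are near those shares. Stat3, the family's main transcription factor, averaged 9.09 ± 0.18 in Th17 recipients, 8.80 ± 0.09 in Th1 recipients and 7.56 ± 0.09 in naive mice (SD, n = 5 each), a difference of 1.53 for Th17 recipients against naive mice (limma adjusted p = 1.24e-13) and of 0.29 between the transfers (adjusted p = 0.0959). Tyk2 and Jak2, both Janus kinases, were 1.35 and 1.13 above naive mice in Th17 recipients, and Stat5a was 1.17 above them. The adaptor Gab1 and the phosphatase Ptpn11, which links gp130 to the MAP kinase pathway, were lower in Th17 recipients, with log2 differences of -0.73 and -0.23 from naive mice. Th1 recipients had the same 6 calls against naive mice, with Stat5b added at 0.44 (adjusted p = 0.0449), and no transducer was called between Th17 and Th1 recipients.

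Of the 7 inhibitors, all measured, 5 were higher in both kinds of wild-type recipient and none was lower, each set against naive mice. The share of all genes called higher was 18.0% for Th17 and 16.7% for Th1 recipients. Socs3, the inhibitor that acts on gp130, read 7.58, 7.54, 7.46, 7.46 and 7.89 in Th17 recipients, 6.92, 5.89, 6.26, 6.44 and 6.48 in Th1 recipients, and 2.79, 3.01, 2.90, 2.96 and 2.75 in naive mice. The 3 groups did not overlap. Its level in Th17 recipients was 4.70 above naive mice (SE 0.14, limma adjusted p = 1.48e-20) and 1.19 above Th1 recipients (SE 0.14, limma adjusted p = 2.40e-06). Ptpn6, a phosphatase abundant in blood-derived cells, was 4.80 and Cish 1.97 above naive mice in Th17 recipients, and Ptpn2 was the other inhibitor called between the transfers, 0.49 higher in Th17 recipients (adjusted p = 0.00498).

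Genes listed as STAT3 targets moved in 1 direction. The list, like the other pathway and marker lists, was chosen with earlier results of these data known, so its counts are a description. It shares Socs3 with the inhibitors. Of 17, 16 were higher in Th17 and in Th1 recipients than in naive mice, the exception being Fgg, and 9 were called higher in the Th17 group when the transfers were compared. Over all genes the shares called higher were 18.0%, 16.7% and 1.91% in these 3 comparisons. The list's median difference was 3.84 for Th17 recipients and 2.38 for Th1 recipients against naive mice, and 0.45 between the transfers. Over all genes these medians were -0.05, -0.06 and -0.0012. Lcn2, Timp1, Serpina3n and Cebpd, which encode a siderophore-binding protein, a metalloprotease inhibitor, a protease inhibitor of reactive astrocytes and a transcription factor, were 8.97, 7.51, 4.78 and 4.76 above naive mice in Th17 recipients. Between the transfers Lrg1 was 2.39 higher (limma adjusted p = 3.28e-06), Bcl3 1.46 higher (adjusted p = 2.48e-04) and Timp1 1.16 higher (adjusted p = 1.21e-06) in Th17 recipients. Many of these genes are also expressed by the infiltrating cells whose markers are given above, and the part of those cells in their levels was not tested.

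Regulators of Il6 transcription and mRNA decay had 5 of 6 measured members higher in both kinds of recipient than in naive mice. Of all genes, 18.0% (Th17) and 16.7% (Th1) were called higher there. Nfkbiz encodes a nuclear cofactor of NF-kB needed for full Il6 induction, and it was the regulator called between the transfers, averaging 6.18 ± 0.56 in Th17 recipients, 4.81 ± 0.26 in Th1 recipients and 3.29 ± 0.11 in naive mice (SD, n = 5 each), a Th17-to-Th1 difference of 1.37 (limma adjusted p = 2.26e-05). Cebpb, a transcription factor first described as a nuclear factor for IL-6, was 4.01 above naive mice in Th17 recipients and 3.94 above them in Th1 recipients. Arid5a, which stabilises Il6 mRNA, was 1.81 and 1.42 higher, Rela 0.92 and 0.85 higher, and Zc3h12a, a ribonuclease that degrades Il6 mRNA, 0.90 and 0.43 higher. Rc3h1, which also promotes mRNA decay, was not called.

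**Figure D4:**
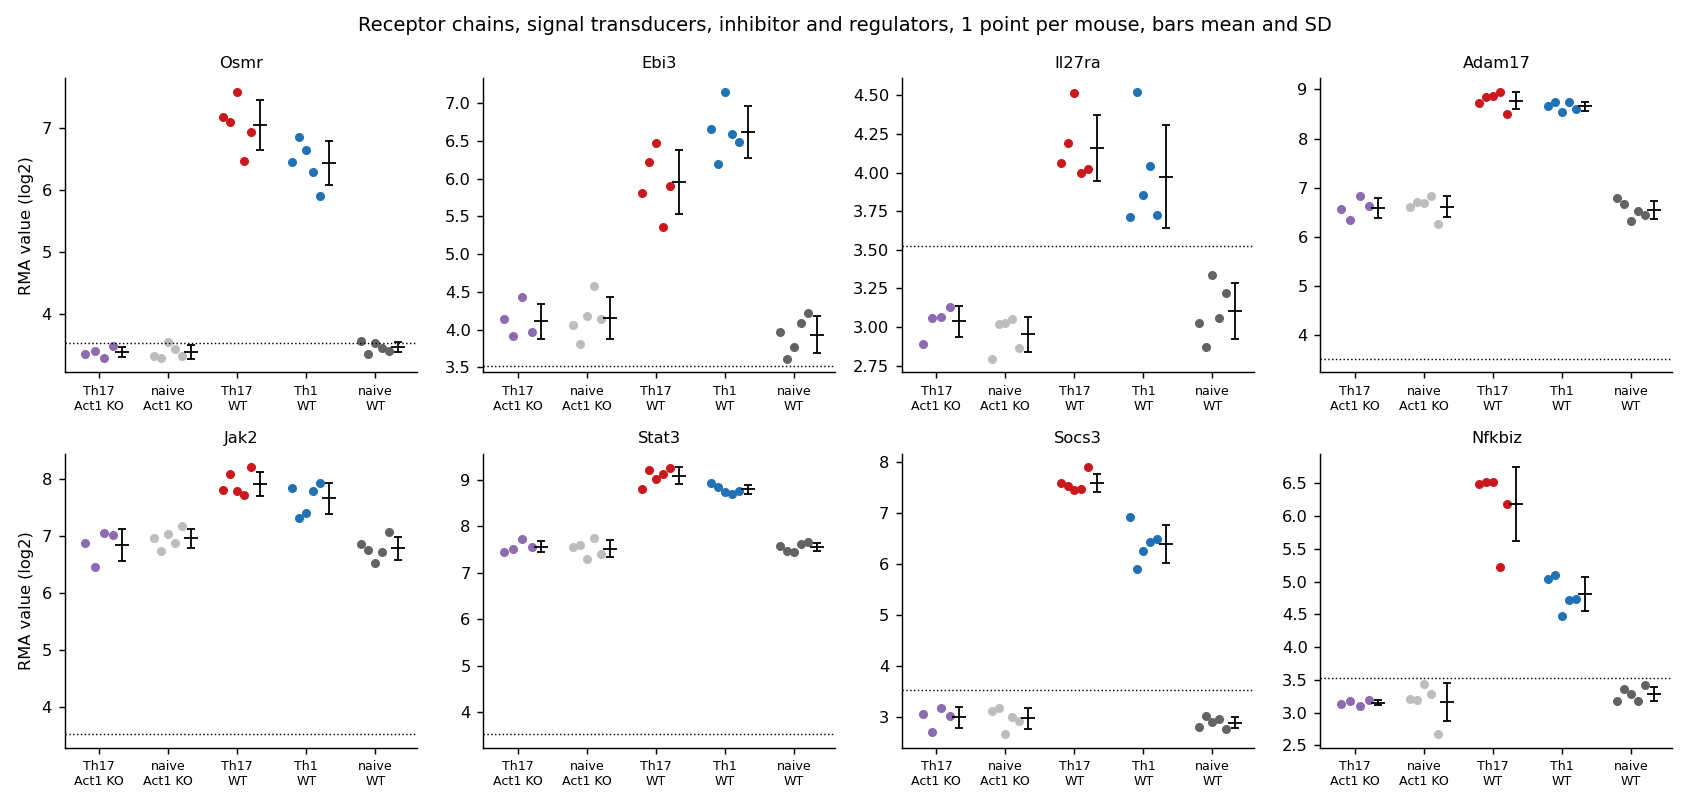
RMA log2 intensity (y axis) of Osmr, Ebi3, Il27ra, Adam17, Jak2, Stat3, Socs3 and Nfkbiz, with 1 point per array and the group mean ± SD for the 5 groups (x axis). The means of both wild-type recipient groups stand above those of the other 3 groups in each panel, with Socs3 at 7.46 to 7.89 in wild-type Th17 recipients.

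In mice labelled Act1 KO, no member was called between Th17 recipients and naive mice. Il6 read 2.72, 2.40, 2.64 and 2.56 in Th17 recipients labelled Act1 KO and 2.45, 2.54, 2.42, 2.72 and 2.51 in naive mice labelled Act1 KO, which overlap. The difference was 0.05 for Il6 (95% interval -0.37 to 0.47), 0.03 for Il6ra (-0.36 to 0.41), 0.01 for Il6st (-0.17 to 0.18) and 0.08 for Lifr, and no member was called among a background of 0.00% (0 of 17097 genes by limma, with 1070 at an unadjusted p under 0.05, 0 after adjustment by the methods' t-test and 0 by an exact Mann-Whitney test). At an unadjusted p under 0.05 no member passed by any of these tests. Socs3 likewise averaged 2.99 ± 0.20 (n = 4) in Th17 recipients labelled Act1 KO and 2.97 ± 0.20 (n = 5) in naive mice labelled Act1 KO (SD), and no gene of the pathway lists was called. The summed macrophage markers were 72.1 to 88.2 in Th17 recipients labelled Act1 KO and 78.0 to 85.4 in naive mice labelled Act1 KO, the neutrophil markers 52.1 to 54.5 and 56.9 to 67.2, and the T cell markers 47.5 to 56.3 and 42.5 to 51.5. None of these markers was called between the 2 groups, and their sums in these 4 arrays were below those of wild-type recipients. The T cell sums of the 4 arrays lay above those of naive wild-type mice (43.9 to 46.8) and overlapped those of naive mice labelled Act1 KO. Of the 6 T cell markers, 1 averaged above the array median line in the 4 arrays and 0 in either naive group.

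Set against wild-type Th17 recipients, Th17 recipients labelled Act1 KO had 4 members lower (Il6, Il6ra, Il6st and Clcf1) and 1 higher (Lifr), where 17.6% of all genes were called lower and 24.6% higher. Il6 was 1.28 lower on the log2 scale (difference -1.28, SE 0.21, 2.43-fold, limma adjusted p = 1.03e-05, exact permutation p = 0.0238), and Th17 recipients labelled Act1 KO lay wholly below the wild-type ones. Il6ra read 4.04, 3.14, 3.90 and 3.98 in Th17 recipients labelled Act1 KO, against 4.63 to 5.30 in wild-type Th17 recipients, a difference of -1.23 (SE 0.19, 2.35-fold, limma adjusted p = 5.45e-06, exact permutation p = 0.00794). Il6st read 7.93, 7.57, 7.91 and 7.84, against 8.09 to 8.34, a difference of -0.39 (SE 0.09, 1.31-fold, limma adjusted p = 4.80e-04). For these 3 genes the groups did not overlap. Such separation was common in this comparison, where an exact Mann-Whitney test called 5859 of 17097 genes after adjustment. With ribosomal protein centring, which moved the median of all genes to 0.37 beside 0.06 without it, the Il6st difference was -0.08 (adjusted p = 0.512), the mean of its 3 probe sets gave -0.13 (adjusted p = 0.285), and 1 of its other probe sets read 0.11. The dim second probe set of Il6ra read 0.09.

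Lifr read 8.29, 8.28, 8.53 and 8.41 in Th17 recipients labelled Act1 KO, above the 7.97 to 8.23 of wild-type Th17 recipients, with a difference of 0.30 (SE 0.08, limma adjusted p = 0.00461, exact permutation p = 0.0159). The adjusted p of Lifr was 0.140 with the title letter as a block and 0.450 for the mean of its probe sets. Clcf1 averaged 2.80 ± 0.16 (SD, n = 4) in Th17 recipients labelled Act1 KO and 3.07 ± 0.18 (SD, n = 5) in wild-type Th17 recipients, and the 2 groups overlapped (difference -0.26, limma adjusted p = 0.0371, exact permutation p = 0.0556). The Clcf1 call was lost without wild-type Th17 recipient 1 or 3 or without Th17 recipient 1, 3 or 4 labelled Act1 KO (adjusted p 0.0711 to 0.140) and with the title letter as a block (0.309), and ribosomal protein centring turned the difference to 0.05. Cntfr, Il11 and Lif were not called on the probe sets that represented them. The second Lif probe set read 2.60, 2.46, 2.38 and 2.52 in Th17 recipients labelled Act1 KO and was 0.75 lower than in wild-type Th17 recipients on the log2 scale (difference -0.75, limma adjusted p = 6.70e-06 over all probe sets, of which 12.7% were called lower), with no overlap.

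Between naive mice of the 2 genotype labels no member was called. The differences of naive mice labelled Act1 KO from naive wild-type mice lay between -0.11 (Clcf1) and 0.09 (Il6ra). After adjustment 0 members were called by limma, the methods' t-test or an exact Mann-Whitney test. Of 17097 genes, 100 (0.585%), 11 and 0 were called by these tests in that order. No member passed an unadjusted p under 0.05 by any of them, beside 1250, 1126 and 857 of all genes. Of the pathway lists 1 gene was called in this comparison, the STAT3 target Serpina3n, at 9.70 ± 0.05 in naive mice labelled Act1 KO and 7.43 ± 0.12 in naive wild-type mice (SD, n = 5 each), a difference of 2.27 (limma adjusted p = 1.02e-13).

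Whether the response to Th17 transfer differed by genotype label was tested directly, as the Th17-to-naive difference in mice labelled Act1 KO minus that in wild-type mice. Il6 (-1.26, SE 0.28, limma adjusted p = 9.39e-04), Il6ra (-1.32, SE 0.26, limma adjusted p = 2.21e-04) and Il6st (-0.42, SE 0.12, limma adjusted p = 0.00662) had a smaller response in mice labelled Act1 KO, where 13.8% of all genes were called lower and 18.2% higher in this term. The Il6st call rested on 1 probe set of 3: its other probe sets gave -0.11 and 0.0022, the mean of the 3 gave -0.17 (adjusted p = 0.341), and ribosomal protein centring left -0.12 (adjusted p = 0.477). Lifr had a difference in response of 0.28 that did not pass (limma adjusted p = 0.0628), and it passed without wild-type Th17 recipient 2, wild-type Th1 recipient 3, Th17 recipient 2 labelled Act1 KO or naive mouse 4 labelled Act1 KO (0.0317 to 0.0474). The second Lif probe set had a difference in response of -0.75 (limma adjusted p = 5.72e-04 over all probe sets, with 9.67% of probe sets called lower). Of the pathway lists, the response was smaller for 3 of 6 other family members and chains, 2 of 2 sheddases, 5 of 7 inhibitors, 16 of 17 STAT3 targets and 5 of 6 regulators. Among the 9 transducers 4 had a lower and 2 a higher term, the higher ones being Gab1 (0.94) and Ptpn11 (0.34), which were lower in wild-type recipients than in naive mice. The comparisons of wild-type Th17 recipients with naive mice and with Th17 recipients labelled Act1 KO share the same 5 arrays.

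**Figure D5:**
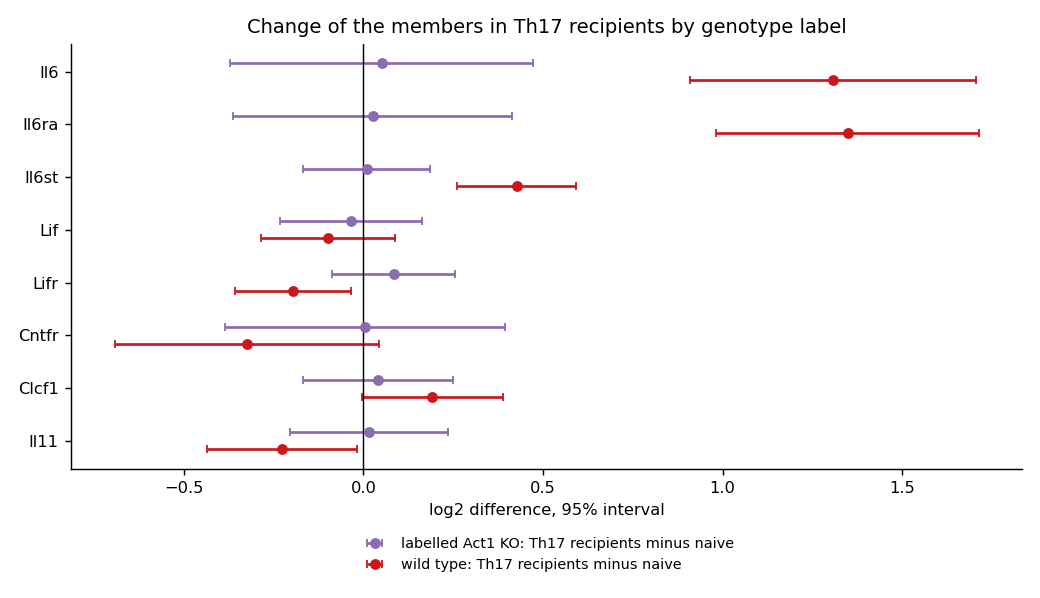
Log2 difference between Th17 recipients and naive mice with its 95% confidence interval (x axis) for the 8 measured members (y axis), in mice labelled Act1 KO and in wild-type mice. The values in mice labelled Act1 KO lie near 0 for every member, with Il6 at 0.05 and Il6ra at 0.03, against 1.31 and 1.35 in wild-type mice.

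Genes whose log2 values followed those of a called member most closely over the 24 arrays were found by Pearson's r, as a description of arrays that share their group structure. For Il6 they were Cxcl2, which encodes a neutrophil-attracting chemokine (r = 0.959), Chst11 (0.913) and Fgf2 (0.898). Those for Il6ra were Rps2 (0.967), Wbp1l (0.954) and Niban2 (0.953), and those for Il6st were Sntb2 (0.900), Sphk1 (0.881) and Traf2 (0.872). Lifr was followed by Stmn3 (0.887), Grk3 (0.871) and Ndufb9 (0.862), and Clcf1 by the STAT3 target Pim1 (0.842), Gabarap (0.83) and Pmm2 (0.83).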

How the data were processed

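Spinal cord RNA of 24 mice was measured on Affymetrix HT MG-430 PM arrays. The authors normalised the arrays by RMA (version not given in the sources used here) and deposited log2 intensities per probe set, 1 column per mouse, which were used as deposited. Probe sets were named from the platform annotation: of 45118 probe sets, 28898 had 1 gene symbol, 551 had several and were not used for names, and 15669 were not listed. The probe set with the highest mean over the 24 arrays represented each of 17097 genes.

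A linear model over all 24 arrays with 1 mean per group was fitted with limma 3.58.1 in R 4.3.3 (lmFit and eBayes), with 7 comparisons, Benjamini-Hochberg adjustment over all genes and a threshold of 0.05. A second fit over all probe sets served for other probe sets of a member. Single members were also tested by exact two-sided permutation of arrays (scipy 1.17.1, Python 3.11.15), with 252 permutations for 5 against 5 and 126 for 4 against 5, and the smallest possible p is 0.00794. The scripts were tested on simulated data. The members and the pathway and marker lists were chosen with earlier results of these data known. All members were named, with up to 4 genes per list and comparison by smallest adjusted p, those called against their list, and, after their values were seen, others that complete a short list or were not called. Alternatives were other probe sets, scalings, weights, blocks, tests and each array left out.

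Replicate numbers of the labels do not pair samples: deviations of same-numbered arrays correlated at -0.25 to 0.44 over 28 pairs, and no comparison had every pair over 0.1. Each array is 1 mouse per the labels, and the number of arrays limits the precision. Promoter windows came from RefSeq (GRCm38.p6), for 8 of 10 members.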

Additional observations from a re-analysis of the deposited data

Results flagged for a closer look

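Within groups, single arrays stood apart from the others in 3 of 80 combinations of gene and group looked at, where chance gives about 1 in 20. Il6ra in Th17 recipient 2 labelled Act1 KO was the lowest of its group at 3.141, against 3.899 for the nearest array. Il6st in naive wild-type mouse 4 was the highest at 7.948, against 7.753 for the nearest. Socs3 in wild-type Th17 recipient 5 was the highest at 7.895, against 7.585 for the nearest.

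The response to Th17 transfer differed between mice labelled Act1 KO and wild-type mice, by limma's test of the difference itself, for Il6 (-1.257), Il6ra (-1.323), Il6st (-0.418) and the second Lif probe set (-0.751) among the members. It also differed for Osmr (-3.600), Ebi3 (-2.066), Il27ra (-0.971), Stat3 (-1.493), Socs3 (-4.687) and the targeted gene Traf3ip2 (-0.965), each value being the log2 response in mice labelled Act1 KO minus that in wild-type mice.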

How the results depend on the processing

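The number of members called was 4 for wild-type Th17 recipients against naive mice, 2 for Th1 recipients against naive mice, 2 for Th17 against Th1 recipients, 0 for naive mice labelled Act1 KO against naive wild-type mice, 0 for Th17 recipients against naive mice both labelled Act1 KO, 5 for Th17 recipients labelled Act1 KO against wild-type ones (the genotype comparison) and 3 for the difference in response. Leaving out 1 array at a time gave 3 to 4, 2 to 3, 2 to 2, 0 to 0, 0 to 0, 4 to 5 and 3 to 4 in that order, and the replicate block gave 4, 2, 2, 0, 0, 6 and 3. In the Th17 comparison with naive mice the block lost Lifr (adjusted p = 0.0669) and added Cntfr (0.0415), which it also added in the genotype comparison (0.0249). A change of at least 2-fold as a further condition left 2 members for Th17 and 1 for Th1 recipients against naive mice, 0 between the transfers and 2 in the genotype comparison. Of all 17097 genes, it left 1251 higher and 398 lower for Th17 and 1152 and 248 for Th1 recipients against naive mice. Between the transfers it left 63 and 25, and in the genotype comparison 349 and 1258. The mean of all probe sets left 1 for Th1 recipients against naive mice and 1 between the transfers. Between the transfers 0 were called when no arrays of other groups entered the model, or by the t-test or the Mann-Whitney test after adjustment. There the adjusted t-test called 69 and the adjusted Mann-Whitney test 0 of all 17097 genes, so the latter cannot decide on a member. A letter of the title code, read here as a plate row although no source gives its meaning, left 3 as a block in the genotype comparison.

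Ribosomal protein centring called 7 members for Th1 recipients against naive mice. It moved the split of all genes, higher to lower, to 1821 to 12592 for Th17 recipients against naive mice (3069 to 4367 without it), to 1595 to 13328 for Th1 recipients (2854 to 4115 without it) and to 11624 to 1906 for the genotype comparison (4212 to 3002 without it). It reversed Il6st (-0.33) and Clcf1 (-0.23) in Th1 recipients against naive mice and Clcf1 in the genotype comparison (0.048). Other probe sets, or their mean, reversed Lif in Th17 recipients against naive mice (0.15 and 0.62), between the transfers (0.53), in the genotype comparison (-0.21 and -0.75) and in the response (-0.21 and -0.75). They also changed the sign, without a call in the new direction, of Lifr against naive mice (0.026 in Th17 and 0.063 in Th1 recipients) and in the genotype comparison (-0.053). The same held for Il6ra in the genotype comparison (0.086) and the response (0.011), and for Il6st in the same (0.11 and 0.0022). These values show no change on those probe sets rather than an opposite one. Of the alternatives for single members, 1866 kept direction and side of the threshold. The causes were not tested. Dim signal limits Lif, Clcf1, Il11 and Il6, and 4 or 5 mice per group limit all values.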
